A study of Homo sapiens and Mus musculus with 13 samples.

Results

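Erythroid and megakaryocyte lineage genes were followed in a mouse blood progenitor line with and without mutant nucleophosmin. The set holds 9 genes taken by symbol from the mouse tables, of 37991 genes in all: Klf1, Nfe2, Epor, Hbb-b1, Alas2, Car1, Pf4, Gp9 and Vwf. Expression was measured by RNA sequencing of total RNA. The knock-in group comprises 3 single-cell clones of HOXB8-immortalized haematopoietic progenitors that carry an NPM1c knock-in made with CRISPR/Cas9, titled clone 12, clone 18 and clone 4. The parental group comprises 2 libraries of the same HOXB8-immortalized line, labelled wild-type. Both groups were grown in medium conditioned with stem cell factor and containing beta-estradiol, and the labels name no erythropoietin or thrombopoietin. The series design text gives the inserted allele as NPM1ca-GFP, and each knock-in library is 1 clone. The mouse libraries include no edited clone without NPM1c, so the mutation, the tag, the editing and the cloning cannot be told apart. Within the knock-in group, the column headers of the files give other clone numbers than the titles do, and clones are named here by title. The human leukaemia libraries of the series are indexed by numbered transcript clusters and were not analysed here.

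Red cells and platelets arise from a shared progenitor. GATA1 with TAL1, LMO2 and LDB1 drives both lineages, KLF1 turns on the red cell programme, and NFE2 with a small MAF partner drives late platelet genes. Erythropoietin acts through the receptor EPOR and JAK2 on red cell precursors, and thrombopoietin acts on megakaryocytes. Maturing red cells then make globin, haem and membrane skeleton proteins, while megakaryocytes load granules with platelet factor 4 and von Willebrand factor and place the GPIb-IX-V complex on the surface.

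Sequencing depth, as recovered from the values, was 12235174, 9427149 and 7358340 reads for clones 12, 18 and 4, with 9728260 for parental replicate 1 and 99557475 for parental replicate 2. A gene at the level of 1 read had a normalized read count of 1.231 to 2.051 in the clones, 1.554 in parental replicate 1 and 0.1527 in parental replicate 2, so rare transcripts were seen far more easily in the latter. Npm1, the targeted gene, lay between 14140 and 15140 in the clones, against 25700 and 25710 in the parental pair (log2 fold change -0.82, adjusted p = 0.000533, limma). Its reads do not separate mutant from normal transcripts. Of the 9 genes, 5 reached the minimum mean of 10 for testing, and Klf1, Epor, Alas2 and Car1 did not. In these bulk libraries, fewer cells of a type and less RNA per cell cannot be told apart.

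Of the 9 genes, Hbb-b1 was the only one whose difference between clones and parental libraries passed the test, upward. Pf4 and Epor were also higher in every clone than in either parental library without passing limma with all 5 libraries. Nfe2, Klf1, Gp9 and Vwf overlapped between the groups, Alas2 was read in a single library, and Car1 in none. Among all 13132 genes tested with limma, 7.51% were called higher, 8.49% lower and 16.0% in either direction at an adjusted p under 0.05, 24.5% had every clone above both parental libraries and 25.8% every clone below them. DESeq2 called 9.88% higher, 10.5% lower and 20.4% in all. With edgeR these shares were 7.84%, 8.96% and 16.8%, and 17.6% in all with filterByExpr. The 1 called gene of 5 tested stands beside those shares as a description only. Hbb-b1 reached the minimum for testing through the clones alone, with a parental mean of 0.3817.

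**Figure D1:**
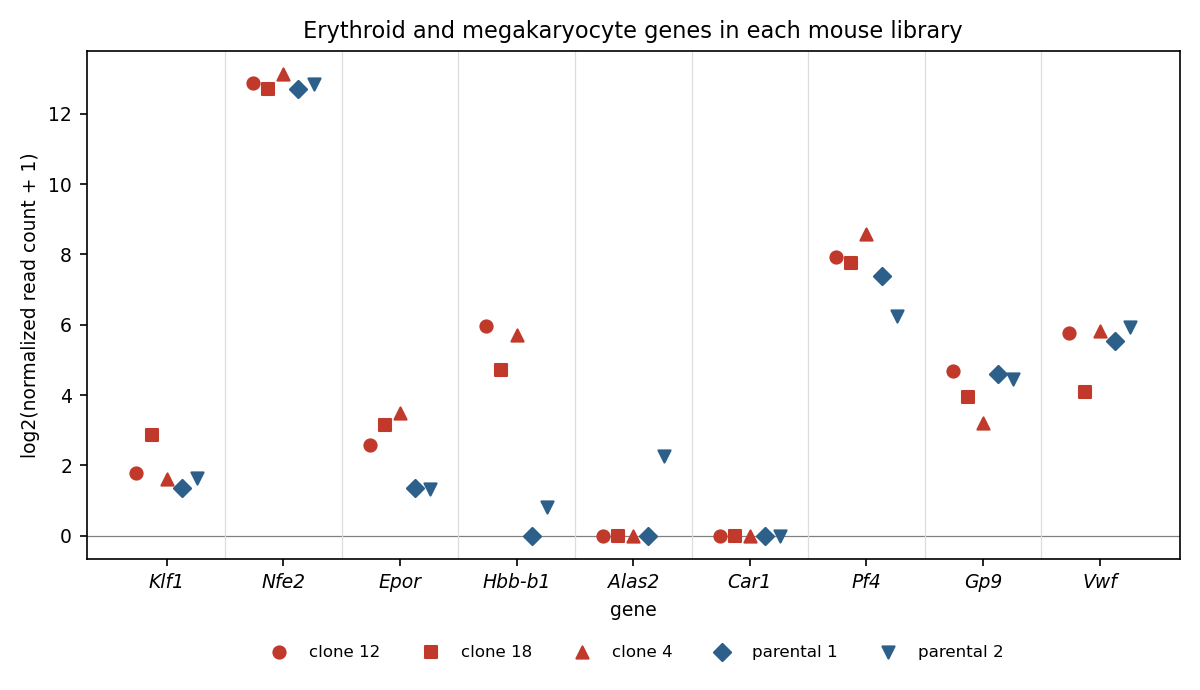
Normalized read counts of the 9 genes, as log2(count + 1) on the vertical axis, with 1 point per library (red for the 3 knock-in clones, blue for the 2 parental libraries). Hbb-b1 lies above 25 in each clone and below 1 in both parental libraries, while Nfe2 lies between 6623 and 9010 in all 5.

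Among the transcription factors, Klf1 (ENSMUSG00000054191), the erythroid Krüppel-like factor, was barely read. Its normalized read count was 2.462, 6.341 and 2.051 in clones 12, 18 and 4 and 1.554 and 2.137 in parental replicates 1 and 2. These values rest on 2, 4 and 1 reads in the clones and on 1 and 14 in the parental libraries. The groups overlapped, and the ratio of the pooled read rates was 1.74 with a 95% exact counting interval of 0.60 to 4.53 (1.11 without clone 18), and a difference was not detectable at this depth. All such intervals cover counting error only, and the pooled parental rate rests mainly on the deep replicate 2.

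Nfe2 (ENSMUSG00000058794), the large subunit of the platelet factor NF-E2, was strongly read in every library. It was at 7461, 6623 and 9010 in clones 12, 18 and 4, against 6731 and 7433 in the parental pair. Clone 4 was the highest and clone 18 the lowest of all 5, so the parental values lay inside the range of the clones. The group means were 7698 ± 1210 (SD, n = 3) and 7082 ± 497 (SD, n = 2), a log2 fold change of 0.11 with a 95% interval of -0.20 to 0.42 (adjusted p = 0.606, limma). Without clone 4 the difference was -0.01.

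Among the factors that work with these, 8 rose and 0 fell. Of 23 entries in the list of erythroid and megakaryocyte transcription factors, 20 were tested and 12 of them did not pass. Of all tested genes 7.51% were called higher and 8.49% lower. By edgeR and DESeq2 8 were higher as well, and at an unadjusted limma p under 0.05 0 were lower. The median log2 fold change was 0.28, against 0.01 over all tested genes. The upward count fell to 3 without clone 12, to 4 without parental replicate 2 and to 5 with no minimum or without trend and robust moderation. Gata2, a factor of stem cells, early progenitors and the mast lineage, rose 2.61-fold (log2 1.38, SE 0.126, adjusted p = 0.000838, limma). Tal1, the helix-loop-helix partner of GATA factors, rose from 1849 and 1860 to 3241, 2690 and 3492 (log2 0.75, adjusted p = 0.00744, limma). Cbfa2t3, a corepressor in TAL1 complexes, rose by 0.86 on the log2 scale (adjusted p = 0.00962, limma). Mafg, a small MAF that pairs with NFE2, rose from 1080 and 1007 to 1705, 1614 and 1459 (adjusted p = 0.0111, limma), a call lost without clone 12 or parental replicate 2 (0.0548 and 0.0623). A second, weakly read Mafg identifier did not pass. The other called members were Gfi1b, Sox6, Ldb1 and Myb. Lmo2, the bridging protein of the GATA complex, was at 12650 and 14170 in the parental libraries and between 14160 and 15390 in the clones (adjusted p = 0.226, limma), and the lymphoid and erythroid regulator Ikzf1 did not pass either (adjusted p = 0.245, limma).

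Gata1, the master factor of both lineages, was just under the minimum for testing, with a mean of 9.822 over the 5 libraries. It was at 18.47, 7.926 and 22.57 in clones 12, 18 and 4, at 0 in parental replicate 1 and at 0.1527, a single read, in parental replicate 2. Every clone was above both parental libraries. The ratio of the pooled read rates was 116 (95% exact counting interval 19.3 to 4710). Without the deep parental replicate 2, the clones were at least 3.44-fold higher taking 3 reads over the group as the floor. With its parental mean of 0.07633, Gata1 clears a minimum mean of 5 through the clones alone (adjusted p = 0.0136, limma). With no minimum its adjusted p was 0.0236 (limma), and it was 0.00443 by edgeR's quasi-likelihood test with filterByExpr. Gata1 and Gata2 also act in mast cells and basophils.

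**Figure D2:**
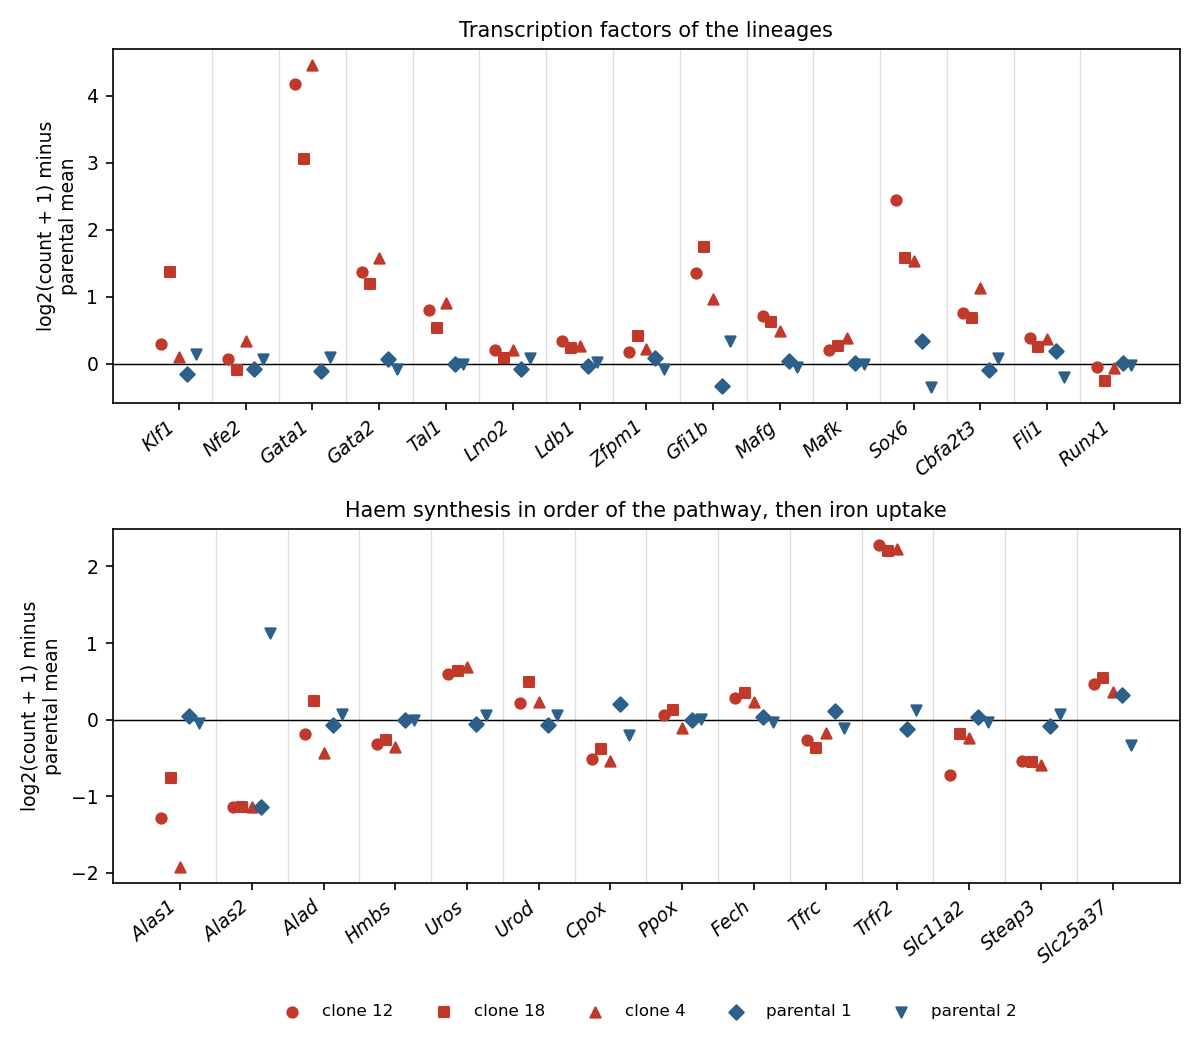
Lineage transcription factors (top) and haem synthesis and iron uptake genes (bottom), with each library's log2(normalized read count + 1) minus the mean of the 2 parental libraries on the vertical axis. Gata1, Gata2, Tal1 and Trfr2 sit above the parental points in all 3 clones, Nfe2 does not, and Alas1 sits below them.

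Epor (ENSMUSG00000006235), the erythropoietin receptor, was at 4.924, 7.926 and 10.26 in clones 12, 18 and 4, from 4, 5 and 5 reads. In parental replicates 1 and 2 it was at 1.554 and 1.527, from 1 and 10 reads. All clones thus lay above both parental libraries, of which replicate 1 held the smallest value above 0 that its depth allows. The pooled read rates gave a ratio of 4.74 (95% exact counting interval 2.00 to 11.5), which became 4.67 (0.71 to 197) without parental replicate 2. Where a lower minimum let Epor into the limma test, it did not pass (adjusted p = 0.147 at a mean of 5 and 0.102 with no minimum).

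In the list of erythropoietin and thrombopoietin signalling, 1 of 16 tested genes was higher, 0 were lower and 15 did not pass, with a median log2 fold change of 0.33. The share called higher, 6.25%, was near the background of 7.51%. At an unadjusted p under 0.05, 7 were higher and 0 lower by limma. DESeq2 called 4 higher and 0 lower, edgeR 1 higher and 0 lower, and the upward count was 0 without clone 12, with no minimum and without trend and robust moderation. Jak2, the kinase bound to the erythropoietin receptor, rose from 416.4 and 490.5 to 686.9, 645.1 and 759.1 (log2 0.62, adjusted p = 0.0243, limma), a call lost without clone 12 (0.0868) or parental replicate 1 (0.0882), with no minimum (0.0516) and without trend and robust moderation (0.0576). Grb2 and Kit, the adaptor and the stem cell factor receptor, had higher values in every clone without passing (adjusted p = 0.116 and 0.183, limma).

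Hbb-b1 (ENSMUSG00000052305), the adult beta-major globin, was at 61.55, 25.36 and 51.29 in clones 12, 18 and 4, from 50, 16 and 25 reads. It was at 0 in parental replicate 1 and at 0.7633, from 5 reads, in parental replicate 2. The lowest clone was thus far above the highest parental library. The log2 fold change was 5.06 (SE 0.614, adjusted p = 0.00221, limma), or 33.3-fold on the log2(value + 1) scale, and 0.267% of tested genes had a larger one. The pooled read rates differed by a ratio of 67.8 (95% exact counting interval 28.0 to 214). Without parental replicate 2 no parental read remained, and the clones were at least 10.1-fold higher taking 3 reads over the group as the floor. Hbb-b1 reached the minimum for testing through the clones alone, since its parental mean was 0.3817. With no minimum it still passed (adjusted p = 0.0101, limma).

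The neighbouring adult gene Hbb-b2, beta-minor globin, went the same way, at 35.70, 19.02 and 24.62 in the clones, against 0 and 0.4580 in the parental pair (log2 4.46, adjusted p = 0.00472, limma). It too reached the minimum through the clones alone, and it was at least 5.89-fold higher without parental replicate 2. Reads of the Hbb copies can be shared, and how shared reads were counted is not given in the sources used here, so the 2 genes are not independent measurements. The alpha globins Hba-a1 and Hba-a2, near-identical copies of each other, were listed at 0 in every library. If reads that fit both copies were dropped, a 0 would not show that alpha globin RNA was absent. Hba-x, Hbb-bh1 and Hbb-bh2 were also at 0. Embryonic Hbb-y had 1 read, in clone 4. Of 8 globin entries in the tables, 2 were tested and both were higher, beside 7.51% of all tested genes. Since both reached the minimum through the clones alone, this count is a description only.

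Alas2 (ENSMUSG00000025270), the erythroid enzyme that starts haem synthesis, was read in parental replicate 2 alone. It was at 3.817 there, from 25 reads, and at 0 in parental replicate 1 and in clones 12, 18 and 4. At the level of the deep library, 2.46 reads would be expected in parental replicate 1 and 7.37 over the 3 clones together. Against a floor of 3 reads over the clones the parental rate was at least 2.24-fold higher (1.30-fold without clone 12), but without parental replicate 2 no read remained in either group. With no minimum for testing, Alas2 did not pass (adjusted p = 0.409, limma).

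The enzymes that follow in the pathway were read in every library, and most did not pass. In the haem and iron list of 17 genes, 16 were tested, 2 were higher, 1 was lower and 13 did not pass, with a median log2 fold change of 0.04. Its share of called genes, 18.8%, was near the background of 16.0%. The upward count ranged from 1 to 4 and the downward count from 0 to 2 over the alternative settings. Alas1, the form of the first enzyme used outside red cells, was at 1064, 1533 and 687.2 in clones 12, 18 and 4, against 2682 and 2523 in the parental pair. All clones were lower, yet the difference missed the threshold (log2 -1.32, SE 0.328, adjusted p = 0.0505, limma). It passed with DESeq2 (0.000218), with a pseudocount of 5 (0.0498) and without clone 18 or clone 4 (0.0104 and 0.0165). Uros, uroporphyrinogen III synthase, rose by 0.64 on the log2 scale (adjusted p = 0.0221, limma), which was lost without clone 12, clone 18 or either parental library (0.0556 to 0.0769).

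Iron uptake genes split. Transferrin receptor 2, listed under its older symbol Trfr2, was at 986.1, 935.2 and 951.9 in the clones, against 186.4 and 220.9 in the parental pair, and rose by 2.23 on the log2 scale (adjusted p = 0.000168, limma). Tfrc, the main transferrin receptor, was between 4209 and 4811 in the clones, against 5882 and 5025 in the parental pair (adjusted p = 0.121, limma). Steap3, the endosomal ferric reductase of red cell precursors, fell from 1959 and 2192 to values between 1372 and 1430 (log2 -0.56, adjusted p = 0.00986, limma), and did not pass without parental replicate 2 (0.0638).

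Car1 (ENSMUSG00000027556), carbonic anhydrase 1 of red cells, had 0 reads among the 29020663 of the clones and 0 among the 109285735 of the parental pair. A count of 0 allows up to 3 reads, a normalized read count of 1.554 over the clones and 0.417 over the parental libraries. No fold is given. Other genes of maturing red cells were likewise at 0 in all 5 libraries: the anion exchanger Slc4a1, Rhag, Kel, Ermap and the red cell pyruvate kinase Pklr.

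In the red cell membrane and enzyme list of 24 entries, 16 were below the minimum, 2 of the 8 tested were higher, 1 was lower and 5 did not pass. The share called was 37.5%, and 25.0% were higher, against 16.0% and 7.51% of all tested genes, but both higher genes reached the minimum through the clones alone. The median log2 fold change was 0.37, and over the alternatives 0 to 3 were called higher and 0 to 1 lower. Erythroid alpha-spectrin, listed as Spna1, was at 68.94, 58.65 and 88.21 in clones 12, 18 and 4, against 6.215 and 7.939 in the parental pair (log2 3.16, adjusted p = 0.00117, limma). Its parental mean was 7.077, and with no minimum the adjusted p was 0.0076 (limma). Its red cell partner beta-spectrin, listed as Spnb1, stayed between 0 and 6.107 in all 5 libraries and was not tested. Icam4, a blood group adhesion protein, was between 27.08 and 36.46 in the clones, against 12.43 and 6.565 in the parental pair, whose mean was 9.497 (adjusted p = 0.0355, limma). It lost the call with no minimum (0.0582) and without clone 12, clone 18 or parental replicate 2 (0.0883 to 0.180). Gypc, glycophorin C, fell from 365.1 and 399.2 to 155.1, 87.18 and 47.18 (adjusted p = 0.0316, limma), a call lost without clone 18 or either parental library (0.0765 to 0.116), with no minimum (0.0623) and without trend and robust moderation (0.0618). A second Gypc identifier, at low values, did not pass. Car2, a carbonic anhydrase of many cell types, was between 979.6 and 1362 in the clones, but the parental libraries differed widely (1136 and 349.0), and it passed only without parental replicate 1 (adjusted p = 0.318 with all libraries and 0.00306 without it, limma). Epb4.1, the skeleton protein 4.1R, did not pass (adjusted p = 0.0738, limma).

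Pf4 (ENSMUSG00000029373), the platelet factor 4 chemokine of alpha granules, was at 240.1, 217.2 and 385.7 in clones 12, 18 and 4, against 167.8 and 75.57 in parental replicates 1 and 2. Every clone was above both parental libraries, which themselves differed by a ratio of 2.22. The means were 281.0 ± 91.4 (SD, n = 3) and 121.7 ± 65.2 (SD, n = 2). The log2 fold change of 1.26 (SE 0.395, 95% interval 0.31 to 2.22) did not pass after adjustment (adjusted p = 0.0814, limma). DESeq2 called it (adjusted p = 0.0158), edgeR did not (0.0921), and the limma value was 0.0163 without parental replicate 1 and 0.262 without parental replicate 2. The log2 fold change in these last cases was 1.83 and 0.69.

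Gp9 (ENSMUSG00000030054), the glycoprotein IX subunit of the von Willebrand factor receptor, was at 24.62, 14.27 and 8.206 in clones 12, 18 and 4, against 23.31 and 20.76 in the parental pair. Clone 12 was the highest of the 5 and clone 4 the lowest, on 4 reads. The log2 fold change was -0.59 with a 95% interval of -1.77 to 0.60 (adjusted p = 0.469, limma). The other subunits of the complex were also weakly read. Gp1ba, which binds von Willebrand factor, was at 20.93, 28.53 and 49.24 in the clones, against 15.54 and 11.91 in the parental pair (adjusted p = 0.129, limma). Gp5 was at 7.386, 1.585 and 18.46 in clones 12, 18 and 4, from 6, 1 and 9 reads. It was at 0 in parental replicate 1 and at 0.3053, from 2 reads, in parental replicate 2. The ratio of pooled rates of Gp5 was 29.8 (95% exact counting interval 7.01 to 267), 17.4 (3.32 to 172) without clone 4, and at least 1.78 without parental replicate 2. Where a lower minimum let Gp5 into the limma test, it did not pass (adjusted p = 0.136 at a mean of 5 and 0.154 with no minimum). Gp1bb had 1 read in clone 12 and 1 in parental replicate 2.

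Vwf (ENSMUSG00000001930), von Willebrand factor, is made by megakaryocytes and endothelial cells. It was at 52.94, 15.85 and 55.39 in clones 12, 18 and 4, against 45.06 and 60.76 in the parental pair. Clone 18, on 10 reads, stood below the other 4 libraries, which were close together. The log2 fold change was -0.52 with a 95% interval of -1.83 to 0.79 (adjusted p = 0.558, limma), and it was 0.05 without clone 18. Of 10 endothelial markers, Cdh5, Tek, Emcn and Cldn5 had no read in any library, and 1 of 4 tested, Pecam1, was higher in the clones. This share of 25.0% stood beside 7.51% of all tested genes called higher. The summed normalized read count of the list was 7645 to 9347 in the clones and 3549 to 3721 in the parental libraries, most of it from Pecam1, which blood progenitors and platelets also make.

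**Figure D3:**
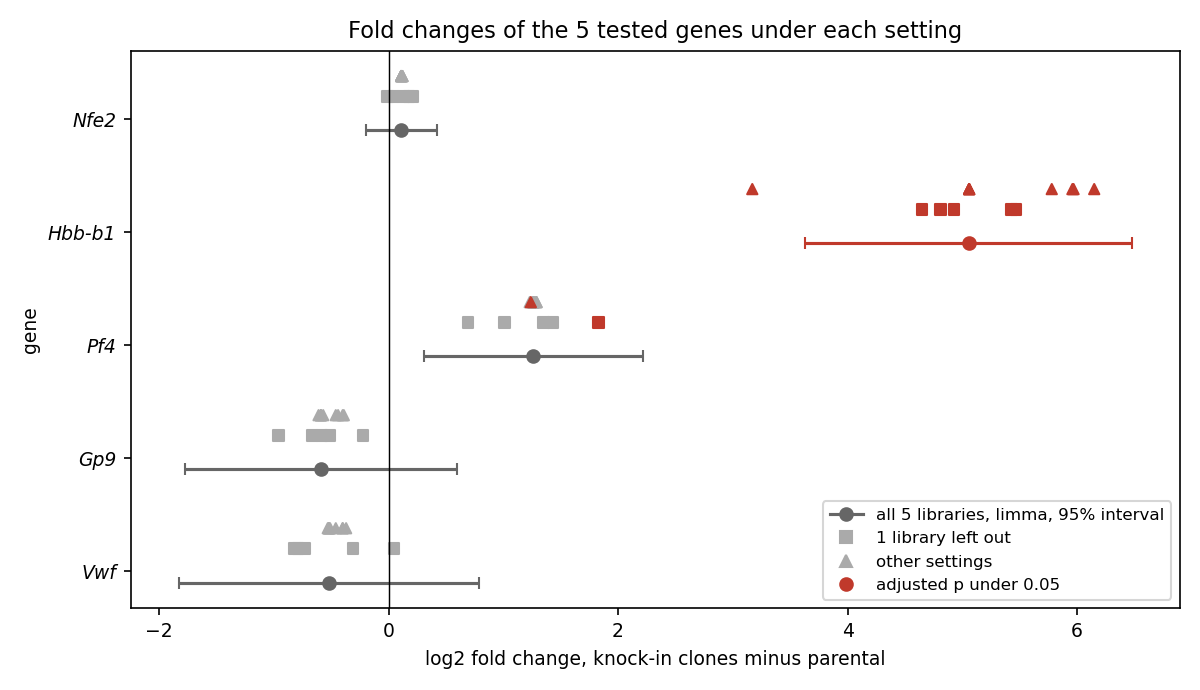
Log2 fold changes of the 5 tested genes (knock-in clones minus parental) with 95% intervals from limma, and the values with 1 library left out (squares) or with another setting (triangles), red where the adjusted p is under 0.05. Hbb-b1 stays between 3.17 and 6.15 and red in every setting in which it was tested, and Pf4 is red with DESeq2 and without parental replicate 1.

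In the platelet and megakaryocyte list of 30 genes, 17 were tested, 4 were higher, 1 was lower and 12 did not pass, with a median log2 fold change of 0.26. The share called was 29.4%, and 23.5% were higher, against 16.0% and 7.51% of all tested genes. DESeq2 called 7 higher and edgeR 5. Over the alternatives the upward count ranged from 3 to 7 and the downward count from 0 to 2. Itga2b, the CD41 chain of the platelet fibrinogen receptor that early progenitors and mast cells also carry, was at 2024, 1783 and 2675 in clones 12, 18 and 4, against 195.8 and 222.7 in the parental pair. It rose by 3.34 on the log2 scale (SE 0.181, adjusted p = 0.000112, limma). Its partner chain Itgb3 fell instead, from 2094 and 1951 to 1190, 1408 and 1383 (log2 -0.61, adjusted p = 0.0116, limma), a call lost without trend and robust moderation (0.0514). Rab27b, a granule secretion GTPase of platelets and mast cells, was at 68.94, 60.23 and 205.1 in the clones, against 0 and 1.221 in the parental pair (log2 6.01, adjusted p = 0.00142, limma). It reached the minimum through the clones alone, with a parental mean of 0.6107, and with no minimum the adjusted p was 0.0116 (limma). Without parental replicate 2 it was at least 21.6-fold higher, against a ratio of pooled rates of 90.4 (95% exact counting interval 45.0 to 212) with it and 58.6 (28.5 to 140) without clone 4. P2ry1, an ADP receptor of platelets, rose by 1.29 on the log2 scale (adjusted p = 0.0102, limma), and the fourth called gene was the thrombin receptor F2rl3. Coagulation factor F13a1 and the granule protein Nbeal2, the highest members by read count that did not pass, had adjusted p values of 0.199 and 0.0620 (limma). The platelet genes Tubb1, Gp6, Selp, Mmrn1 and Gng11 had no read in any library.

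**Figure D4:**
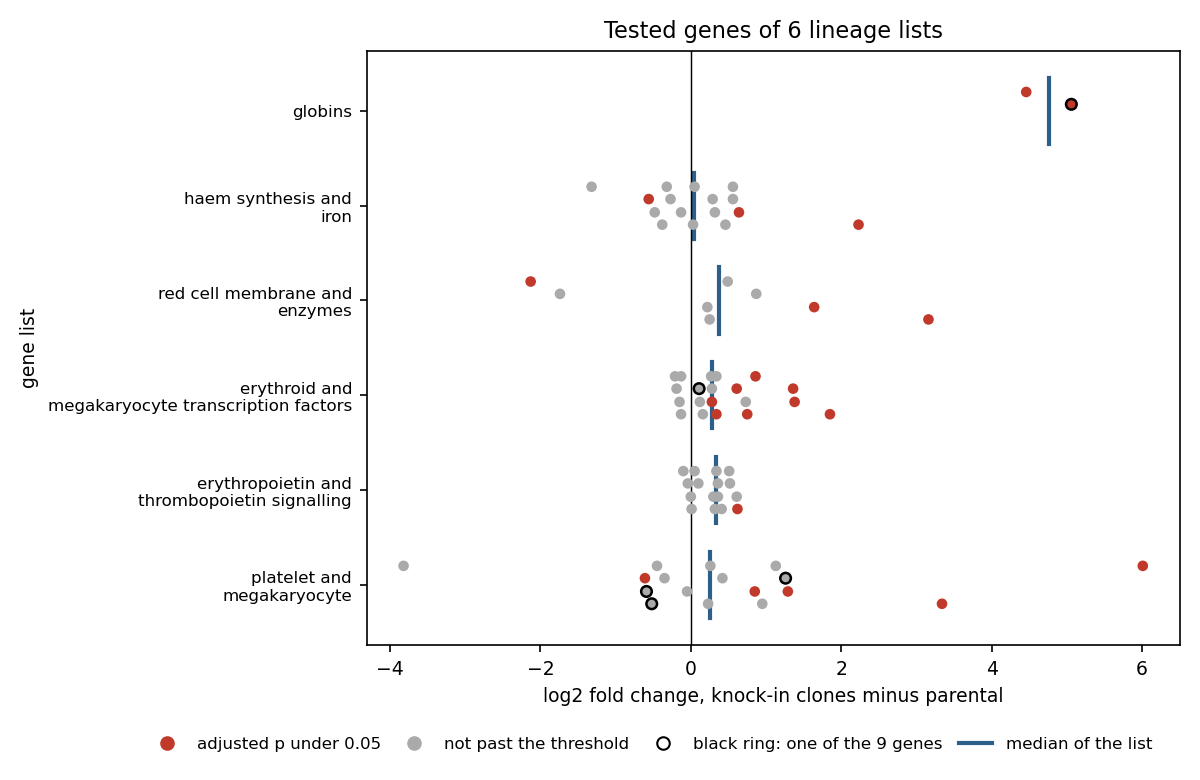
Log2 fold changes of the tested genes in 6 lineage lists (rows), with red points past an adjusted p of 0.05, black rings for the genes of the set and a blue bar at each list's median. The medians lie between 0.04 and 0.37 except for the globins. Their 2 tested genes both rose, and both reached the minimum for testing through the clones alone.

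Genes with the profile most like each tested gene were taken by the distance between centred log2(value + 1) profiles over the 5 libraries, the 2 nearest for each. Those of Hbb-b1 were Cd200r3, a receptor of basophils and mast cells (distance 0.588 log2 units), and Plekha8 (0.663). Cd200r3 was at 1508, 840.1 and 2107 in clones 12, 18 and 4, against 37.29 and 52.98 in the parental pair. For Pf4 they were Gpr174 and Man2b1, for Vwf Zfp458 and Nr4a2, for Gp9 9030407P20Rik and 4930581F22Rik, and for Nfe2 Ssh2 and 1600027N09Rik. With 5 libraries such nearness is a description only.

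Markers of other blood cells differed between the same groups. In the mast cell and basophil list, 4 of 6 tested genes were higher in the clones and 0 were lower (0 also by edgeR, DESeq2 and at an unadjusted p under 0.05), and the summed normalized read count of its 10 genes was 5442 to 8010 in the clones and 1260 to 3489 in the parental libraries. Most of the sum in every library was Cpa3 and Hdc, which did not pass (adjusted p = 0.225 and 0.139, limma). The parental libraries of Cpa3 differed widely (2450 and 386.2). Of the 4 called genes, Tpsb2 and Il1rl1 reached the minimum through the clones alone, and 4 weakly read genes of the list were not tested. The share called higher, 66.7% against 7.51% of all tested genes, is a description of the genes that passed the minimum. None of its genes was at 0 in all libraries, but the mast cell protease gene Mcpt4 had 1 read, in clone 18. In the neutrophil and monocyte list 3 of 8 tested genes were lower (37.5%, against 8.49% of all tested genes). The sum was 13910 to 28090 in the clones against 47560 to 54150 in the parental libraries. Most of that sum was Mpo, which did not pass (adjusted p = 0.0629, limma). Ctsg had a log2 fold change of 1.27 (adjusted p = 0.382, limma). Its parental libraries differed widely (1866 and 260.3), and the clones, at 1422, 1714 and 1943, overlapped them. Camp and Lyz2 were listed at 0 throughout. In the B cell list, with Ms4a1 at 0, 3 of 5 tested entries were lower (60.0%, against 8.49% of all tested genes). Of these, Cd79b and Ighm reached the minimum through the parental libraries alone. The sums were 740.2 to 1017 in the clones against 1445 to 1515 in the parental libraries. Of the progenitor markers, 2 of 6 tested were higher and 1 lower (sums of 46100 to 55080 against 42830 to 47330). The T and NK cell and stromal lists had 1 tested gene each, which did not pass. The part of these cell types in the differences of Gata1, Gata2, Itga2b, Rab27b and the globins was not tested.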

How the data were processed

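The deposited mouse signal values are read counts per Ensembl gene divided by 1 DESeq2 size factor per library, as the submitters' processing notes and the values show. In every library 100% of values above 0 were whole multiples of the smallest, within 0.01, which returned the reads. The notes also list STAR 2.6.1, RSEM and the builds mm9 and hg19, giving no role. Strand use and the annotation release were not given in the sources used here. Nothing states that the parental pair grew as separate cultures, so p-values may measure technical spread.

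Genes with a mean of at least 10 (13132 of 37991) were tested with limma 3.58.1 (trend, robust) on log2(value + 1) in R 4.3.3, with Benjamini-Hochberg adjustment over all of them and a threshold of 0.05. Folds on this scale understate the change of low genes. Low genes were also compared by pooled read rates with 95% exact conditional intervals, or with 3 reads over a group as the floor. Alternatives were edgeR 4.0.16 and DESeq2 1.42.0 on the reads, other scaling, pseudocounts, filters and moderation, and each library left out. The fits were tested on simulated data with 200 changed genes. That simulation gave every gene the same dispersion, so it does not cover genes with a wider spread between libraries. The members and lists were chosen with earlier results of these data known.

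Named beside the 9 members were their paralogs and partners, up to 4 called genes with the smallest p and the 2 most read uncalled genes of each list, and the 2 nearest profiles. Chosen after their values were seen were Spnb1, Gfi1b, Sox6, Ldb1, Myb, F2rl3, Pecam1, Mcpt4, Tpsb2, Il1rl1 and Mpo. So were Ctsg, Cd79b, Ighm, Hbb-y, Cpa3, Hdc, Cd48, Flt3, Cd34 and the genes at 0. Ahsp, Hbb-bs and Hbb-bt matched no symbol, and 4 list genes matched by older symbols. Gypc, Mafg and Ebf1 have 2 identifiers each, counted as 2 entries. Some list genes are not reported here.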

Additional observations from a re-analysis of the deposited data

How the results depend on the processing

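The number of genes called, 2101, stayed within 1.5 times under 9 of 10 settings that kept all libraries and was 1271 without trend and robust moderation. It ranged from 990 to 2115 with 1 library left out, 990 without parental replicate 2 and 1023 without clone 12. The number of the 9 genes called higher was 1. It was 2 with DESeq2, 0 with the minimum mean at 50, which left Nfe2 and Pf4 alone to test, and 1 to 2 with 1 library left out. The number called lower was 0 in every setting, with limma, edgeR and DESeq2, and 0 at an unadjusted limma p under 0.05. With 1 library left out, the log2 fold change ranged from -0.82 to 0.05 for Vwf, from -0.01 to 0.21 for Nfe2 and from -0.35 to 0.05 for the weakly read second Mafg identifier. The sign turned without clone 18 (Vwf), clone 4 (Nfe2) and parental replicate 1 (Mafg), and the cause was not tested. Library totals as the only scaling changed no call among the 9 genes. The edgeR fit with filterByExpr was added after seeing the data and called 2265 of 12903 genes. The planned edgeR and DESeq2 fits and limma without trend and robust moderation were not run on genes below the minimum mean. In 4 of the 5 libraries a gene at the level of a few reads is at the limit of detection, which bounds what can be said of Klf1, Epor, Alas2 and Car1. No paired analysis was possible because the clones and the parental libraries share no replicate number.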

Other observations

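Thrombospondin 1 (Thbs1), a platelet alpha granule protein, was at 1.231, 107.8 and 6.154 in clones 12, 18 and 4 and at 163.1 and 174.8 in the parental libraries. It was the most negative gene of the platelet list (log2 -3.82), and it did not pass (adjusted p = 0.219, limma). The parental libraries stood apart in Lyl1, a TAL1-related factor, at 870.1 in replicate 1 and 310.5 in replicate 2, with the clones between 817.4 and 923.2. Parental replicate 2 was also the lower one for Pf4 and Car2. The same held for Cpa3 of the mast cell and basophil list (386.2 against 2450) and for Ctsg (260.3 against 1866). These genes were chosen after their values were seen.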
